A study of Mus musculus with 18 samples.

Results

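The pro-survival Bcl2 genes were followed through neutrophils sorted by flow cytometry from mouse bone marrow and either lysed at once or cultured with GM-CSF, the granulocyte-macrophage colony-stimulating factor. The members were the 7 rows of the deposited count table whose gene identifier maps to Bcl2, Bcl2l1, Bcl2l2, Mcl1, Bcl2a1a, Bcl2a1b or Bcl2a1d, of 53379 rows in all. All 7 were among the 11569 genes that passed the filter on low counts. The mice were 10 weeks old and were wild type (WT) or labelled CIS-/-, a loss of CIS, the cytokine-induced inhibitor of signalling encoded by Cish. Each genotype gave 3 libraries of unstimulated cells, 3 after 4 h and 3 after 24 h in RPMI medium with 10% serum and 100 ng/mL GM-CSF, so there were 6 groups of 3. The labels give 42 h in one protocol, but 24 h in the titles and in the other protocol, and 24 h is used here. Cells cultured without GM-CSF were not analysed here, so time in culture and GM-CSF cannot be told apart. Strain and allele design, not given in the sources used here, limit what the groups model. Nothing states that the 3 libraries of a group came from different animals, and p-values then reflect only how libraries of a group vary.

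Pro-survival Bcl2 proteins hold back the mitochondrial route to cell death. They bind BH3-only proteins such as BIM, NOXA and BMF, which sense stress, and the effectors BAX and BAK, which otherwise open the outer mitochondrial membrane so that cytochrome c leaves and caspases are activated. Mature neutrophils are short-lived cells that carry little BCL2 and depend on MCL1, a protein with a fast turnover. They can also make A1, the product of the Bcl2a1 genes, and GM-CSF is known to extend their life. GM-CSF signals through STAT5, and CIS is made in response to STAT5 and dampens such signals.

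The A1 protein is encoded in the mouse by near-identical copies on chromosome 9, and the first 60 coding bases of the 3 member copies (GENCODE M21) are shown because they hold 6 of the 12 positions at which the copies differ over 516 coding bases. Capitals mark those positions, counted from the start codon.
Bcl2a1a: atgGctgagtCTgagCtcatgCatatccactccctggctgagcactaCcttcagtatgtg
Bcl2a1b: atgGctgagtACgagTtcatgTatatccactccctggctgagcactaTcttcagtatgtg
Bcl2a1d: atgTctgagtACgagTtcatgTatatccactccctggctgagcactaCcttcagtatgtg
Coding identity was 97.9% between Bcl2a1a and Bcl2a1b, 98.6% between Bcl2a1a and Bcl2a1d and 98.8% between Bcl2a1b and Bcl2a1d. The longest coding stretch with no difference among the 3 copies ran over 217 bases. Of all 75-base windows of the transcripts, 44.8% for Bcl2a1a, 31.6% for Bcl2a1b and 32.4% for Bcl2a1d occurred in no other annotated gene, against 100.0% for Mcl1, Bcl2l1 and Bcl2 and 87.8% for Bcl2l2. Reads from the other windows could be split or lost in counting, so the level of each single copy is uncertain, and the sum over the copies is given beside it.

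The upstream regions of the 3 copies also share a stretch, printed from the RefSeq promoter table (GRCm38.p6) because the copies moved together. Capitals mark matches, on either strand, to the AP-1 letters TGANTCA and to GAGGAA, the core of PU.1 and other ETS factor sites.
Bcl2a1a (chr9:88956790-88956869, + strand): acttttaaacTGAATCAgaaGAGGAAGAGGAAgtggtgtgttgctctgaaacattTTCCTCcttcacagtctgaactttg
Bcl2a1b (chr9:89199099-89199178, + strand): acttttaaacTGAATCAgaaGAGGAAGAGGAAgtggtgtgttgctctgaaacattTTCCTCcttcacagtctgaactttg
Bcl2a1d (chr9:88731895-88731974, - strand): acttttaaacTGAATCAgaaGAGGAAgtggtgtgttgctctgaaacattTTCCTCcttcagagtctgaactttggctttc
The 80 bases were identical in Bcl2a1a and Bcl2a1b. Bcl2a1d lacked 1 of 2 adjoining GAGGAA repeats and also differed at a base after TTCCTC. Over the whole 300-base windows identity was lower for Bcl2a1b, at 73.8% with Bcl2a1a and 70.6% with Bcl2a1d. It was 94.1% between Bcl2a1a and Bcl2a1d. TGANTCA occurred in 7.8% of all 32851 promoter windows of 300 bases and GAGGAA in 28.3%. The AP-1 match lay at base -120 from the annotated start of Bcl2a1a, at -164 for Bcl2a1b and at -114 for Bcl2a1d. No other member's windows held TGANTCA, while GAGGAA also occurred in the windows of Bcl2 and Bcl2l2. Of the 3 annotated Bcl2l1 promoter windows 1 held a match to the NF-kB motif, found in 8.5% of all windows and shown here in capitals.
Bcl2l1 (chr2:152830908-152830967, - strand): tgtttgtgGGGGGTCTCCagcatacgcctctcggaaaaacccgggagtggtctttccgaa
The STAT letters TTCNNNGAA occurred in 8.3% of all windows and in none of the members' 9 windows. These matches describe letters in short windows only.

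Per library the totals ran from 12170524 to 22539858 counts. Cish, the gene the label refers to, averaged 6.5 CPM in WT cells and 18.7 CPM in cells labelled CIS-/- before GM-CSF. CPM are counts per 1000000 counts of the library, scaled by TMM factors. The means at 4 h were 1150 and 240 CPM, and those at 24 h 1060 and 238 CPM. In unstimulated libraries labelled CIS-/- the Cish transcript was thus higher, by a log2 fold change of 1.52 ± 0.08 (SE, n = 3 and 3, edgeR adjusted p = 4.72e-25). It was lower at 4 h and 24 h. The allele design is not given, so transcript levels cannot show whether CIS protein was lost. All directions between genotypes below refer to libraries labelled CIS-/-. Neutrophil markers, 10 genes summed, stood at 114000 to 115000 CPM in unstimulated WT libraries and at 109000 to 113000 CPM in those labelled CIS-/-. After 24 h they stood at 26400 to 27800 and 26900 to 31500 CPM. Summed B cell markers reached 2.97 CPM at most, and T and NK cell markers 9.13 CPM. In bulk libraries fewer cells of a type and less RNA per cell cannot be told apart.

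Mcl1 was by far the highest member per exon length in all 6 groups. Its level, in CPM per kb of merged exons, was 561 ± 6.8 (SD, n = 3) in unstimulated WT cells, against 8.6 for Bcl2l1 as the next member and under 1 for each of the others. At 4 h the order in WT cells was Mcl1 at 616, Bcl2l1 at 90.1, Bcl2a1a at 21.3, Bcl2a1b at 14.5, Bcl2a1d at 8.34, Bcl2l2 at 0.204 and Bcl2 at 0.109, with only the last 2 overlapping. By 24 h Bcl2a1a, at 84.3 in WT cells and 148 in cells labelled CIS-/-, stood above Bcl2l1, at 40.6 and 75.8, although its count can miss reads shared with other copies. In WT cells at 24 h Bcl2l1 and Bcl2a1b, at 39.4, overlapped. In cells labelled CIS-/- it was Bcl2a1a and Bcl2a1b, at 147, that overlapped. In unstimulated WT cells Bcl2l2, Bcl2a1b and Bcl2a1d each overlapped the next lower member, and in those labelled CIS-/- Bcl2a1a did as well. Divided by the longest transcript instead of all merged exons, Bcl2l1 stood at 72.5 in WT cells and 135 in cells labelled CIS-/- at 24 h, still under Bcl2a1a.

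**Figure D1:**
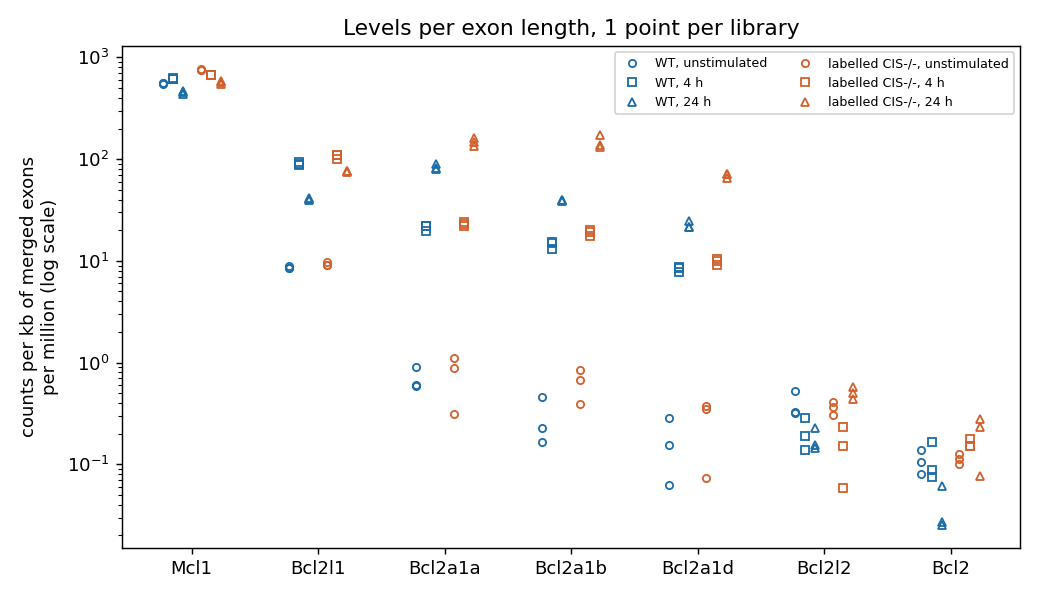
Levels of the 7 genes in CPM per kb of merged exons (log axis), with 1 point per library, circles for unstimulated cells, squares for 4 h and triangles for 24 h, in blue for WT and orange for libraries labelled CIS-/-. Mcl1 lies above all other members throughout, while the 3 Bcl2a1 copies climb from at most 1.1 to at least 21.6 by 24 h.

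Most members changed with time in GM-CSF, as did most genes. In WT cells 5 of 7 members were higher and 1 lower at 4 h than unstimulated, where 76.3% of all genes tested were called at an adjusted p under 0.05 (38.1% higher, 38.2% lower). At 24 h 4 were higher and 3 lower (78.4% of all genes called, 40.7% higher and 37.7% lower), and between 4 h and 24 h 3 rose and 3 fell (75.3%, 35.7% higher and 39.6% lower). In cells labelled CIS-/- the counts were 4 higher and 2 lower at 4 h (77% of all genes called, 37.9% higher and 39.1% lower), 5 and 1 at 24 h (84.1%, 42.1% higher and 42% lower), and 4 and 2 between 4 h and 24 h (75.7%, 37.8% higher and 37.9% lower). The number of members called is thus near the background in each, and no more can be read from it. As a description of size, the members' median log2 fold change was 3.39 in WT at 4 h and 2.24 at 24 h, against -0.02 and 0.05 over all genes. Both medians count the near-identical Bcl2a1 copies as 3 of the 7 rows and lean on them. Summed to 1 row, Bcl2a1 changed by 5.28 at 4 h and 7.01 at 24 h. Beside it stood Bcl2l1 at 3.39 and 2.24, Mcl1 at 0.14 and -0.30, Bcl2 at 0.01 and -1.41, and Bcl2l2 at -0.94 and -1.09. The WT and CIS-/- comparisons each measure 4 h and 24 h against the same unstimulated libraries.

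Between genotypes all 7 members were higher in libraries labelled CIS-/- at 24 h, Mcl1 only where a scaling factor beyond library size was used. Unstimulated, 1 of 7 was higher (Mcl1) and none lower by edgeR, where 22.3% of all genes were called (12.9% higher, 9.41% lower) and where no further member had an unadjusted p under 0.05 except Bcl2l1 at 0.0363. At 4 h 3 were higher, where 17.3% of all genes were called (8% higher, 9.3% lower). At 24 h 7 of 7 were higher, where 76.3% of all genes were called, 38.2% higher and 38.1% lower. The members' median log2 difference was 0.16 unstimulated, 0.23 at 4 h and 1.45 at 24 h, against a median between -0.02 and -0.01 for all genes. The medians, like the counts of members, take the near-identical Bcl2a1 copies as 3 of the 7 rows. The unstimulated median was the value of Bcl2a1a and the 24 h median that of Bcl2l2, rows with few counts in the libraries compared. Summed to 1 row, Bcl2a1 differed by 0.55 unstimulated, 0.23 at 4 h and 1.32 at 24 h. The 24 h comparison depends on the scaling. With library sizes alone, an alternative chosen after seeing the data, the median of all genes moved to -0.55, the share of called genes that were higher went from 50% to 26.8%, and Mcl1 turned lower while the other 6 members were still called higher.

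The change over time was also compared between genotypes. From unstimulated to 4 h, where the test called 15.7% of all genes (5.32% with a larger and 10.4% with a smaller log2 change in cells labelled CIS-/-), 1 member was called, Mcl1, with a smaller change. From unstimulated to 24 h 3 members had a larger change and 1 a smaller (64.7% of all genes, 31.6% larger and 33.1% smaller). From 4 h to 24 h all 7 had a larger change (66% of all genes, 33.9% larger and 32.1% smaller). With library sizes alone 6 of these kept their sign and 5 their call, and Mcl1 turned. That scaling moved the share of larger changes among all genes called from 51.4% to 26.7% here, and from 48.8% to 24.7% for unstimulated to 24 h. The Bcl2a1 copies are 3 of the 7 rows in these counts as well. Summed to 1 row with TMM scaling, their change from 4 h to 24 h was larger by 1.08.

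**Figure D2:**
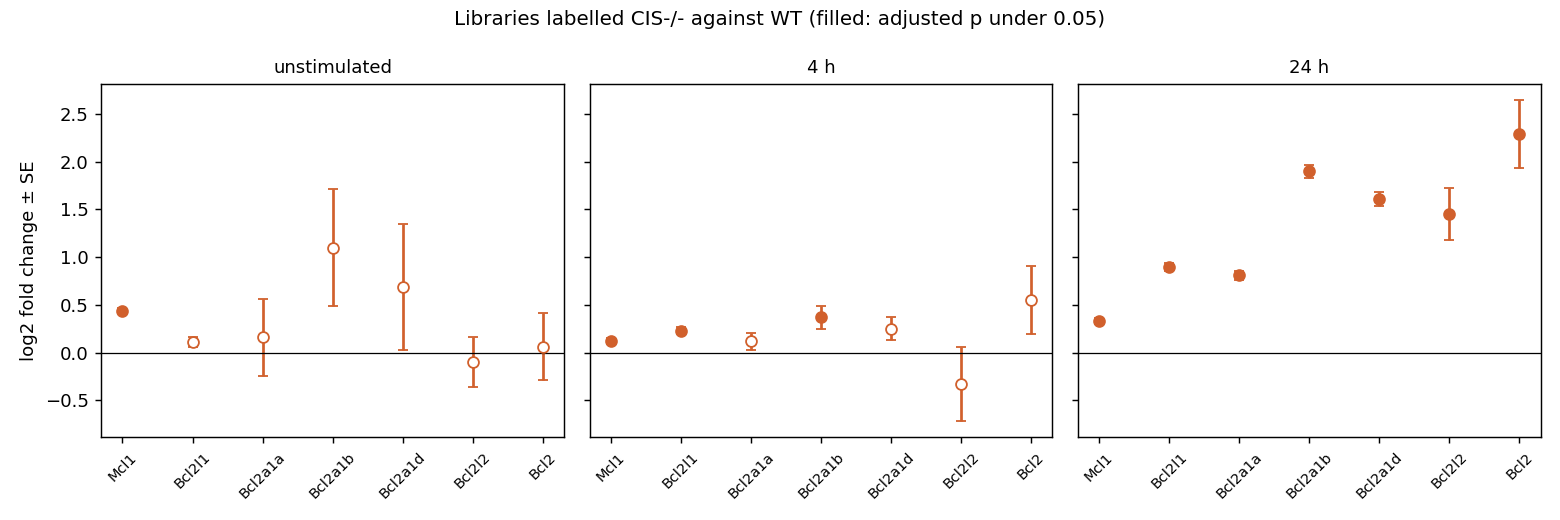
Log2 fold change ± SE of libraries labelled CIS-/- against WT for each gene (x axis) at the 3 conditions, with filled points for an adjusted p under 0.05 in the edgeR fit with TMM scaling. At 24 h the values run from 0.33 for Mcl1, which turns to -0.21 with library sizes alone, to 2.29 for Bcl2.

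Mcl1 (ENSMUSG00000038612.16, chr3:95658788-95663176, + strand, mm10) encodes the short-lived pro-survival protein on which neutrophils depend most. The unstimulated WT libraries held 1930, 1890 and 1930 CPM, those at 4 h 2070, 2140 and 2110 CPM, and those at 24 h 1510, 1590 and 1570 CPM. With the CIS-/- label the values were 2580, 2560 and 2650 CPM unstimulated, then 2280, 2310 and 2300 CPM, then 1940, 1880 and 2030 CPM. The highest group was thus the unstimulated one labelled CIS-/-, and on this scale the 3 libraries labelled CIS-/- lay above the 3 of WT at each condition. The log2 difference between genotypes was 0.44 ± 0.03 unstimulated (adjusted p = 5.43e-19 in edgeR). It was 0.12 ± 0.03 at 4 h (adjusted p = 0.00132 in edgeR) and 0.33 ± 0.03 at 24 h (adjusted p = 3.77e-15 in edgeR). With library sizes alone the first 2 differences were 0.40 and 0.11, but the 24 h difference was -0.21 (edgeR adjusted p = 5.77e-09), so its sign rests on the scaling.

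In cells labelled CIS-/- Mcl1 fell, with a log2 change of -0.18 ± 0.03 at 4 h (adjusted p = 3.93e-07 in edgeR). Its log2 change at 24 h was -0.41 ± 0.03 (adjusted p = 2.12e-19 in edgeR), and with library sizes alone the changes were -0.32 and -0.60. In WT the log2 change was 0.14 ± 0.03 at 4 h, -0.30 ± 0.03 at 24 h and -0.44 ± 0.03 between 4 h and 24 h, all called with TMM scaling. With library sizes alone these 3 values were -0.041, 0.007 and 0.048, none called, so no direction is given for Mcl1 in WT. The 4 h change differed between genotypes by -0.31 ± 0.04 (edgeR adjusted p = 2.8e-08), where 15.7% of all genes were called for that difference. Of the 7 members Mcl1 was the one called there.

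Bcl2l1 (ENSMUSG00000007659.18, chr2:152780668-152831728, - strand) encodes BCL-XL, a long-lived pro-survival protein of the mitochondrial membrane and a known STAT5 target. Unstimulated WT libraries held 40.5, 38.8 and 39 CPM, those at 4 h 409, 403 and 427 CPM, and those at 24 h 186, 190 and 182 CPM. With the CIS-/- label the values were 44.2, 41.3 and 42.1 CPM unstimulated, then 499, 500 and 456 CPM, then 348, 349 and 347 CPM. In both genotypes the level peaked at 4 h and fell back by 24 h, further in WT.

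By 4 h Bcl2l1 had risen 10.5-fold in WT (log2 3.39 ± 0.04, edgeR adjusted p = 1.12e-57) and 11.4-fold in cells labelled CIS-/- (log2 3.51 ± 0.04, edgeR adjusted p = 1.04e-58). From 4 h to 24 h it fell 2.22-fold in WT (log2 -1.15 ± 0.04) and 1.4-fold in cells labelled CIS-/- (log2 -0.48 ± 0.04). That change differed between genotypes by 0.67 ± 0.05 (edgeR adjusted p = 2.61e-18), where 66% of all genes were called. Library sizes alone gave 0.14, still called. At a given time libraries labelled CIS-/- exceeded WT by 0.11 ± 0.05 unstimulated, which was not called (edgeR adjusted p = 0.123). The excess was 0.23 ± 0.04 at 4 h (adjusted p = 3.62e-07 in edgeR) and 0.90 ± 0.04 at 24 h (1.87-fold, adjusted p = 1.52e-31 in edgeR). The 24 h difference was 0.37 with library sizes alone. Erythroid cells also express Bcl2l1. The 6 erythroid markers summed to 41.2 to 43.9 CPM in unstimulated WT and 113 to 118 CPM with the CIS-/- label, and at 24 h to 7.31 to 8.94 against 27.9 to 39.8 CPM, with Klf1 at 0 in WT at 24 h. Their part in the Bcl2l1 result was not tested.

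**Figure D3:**
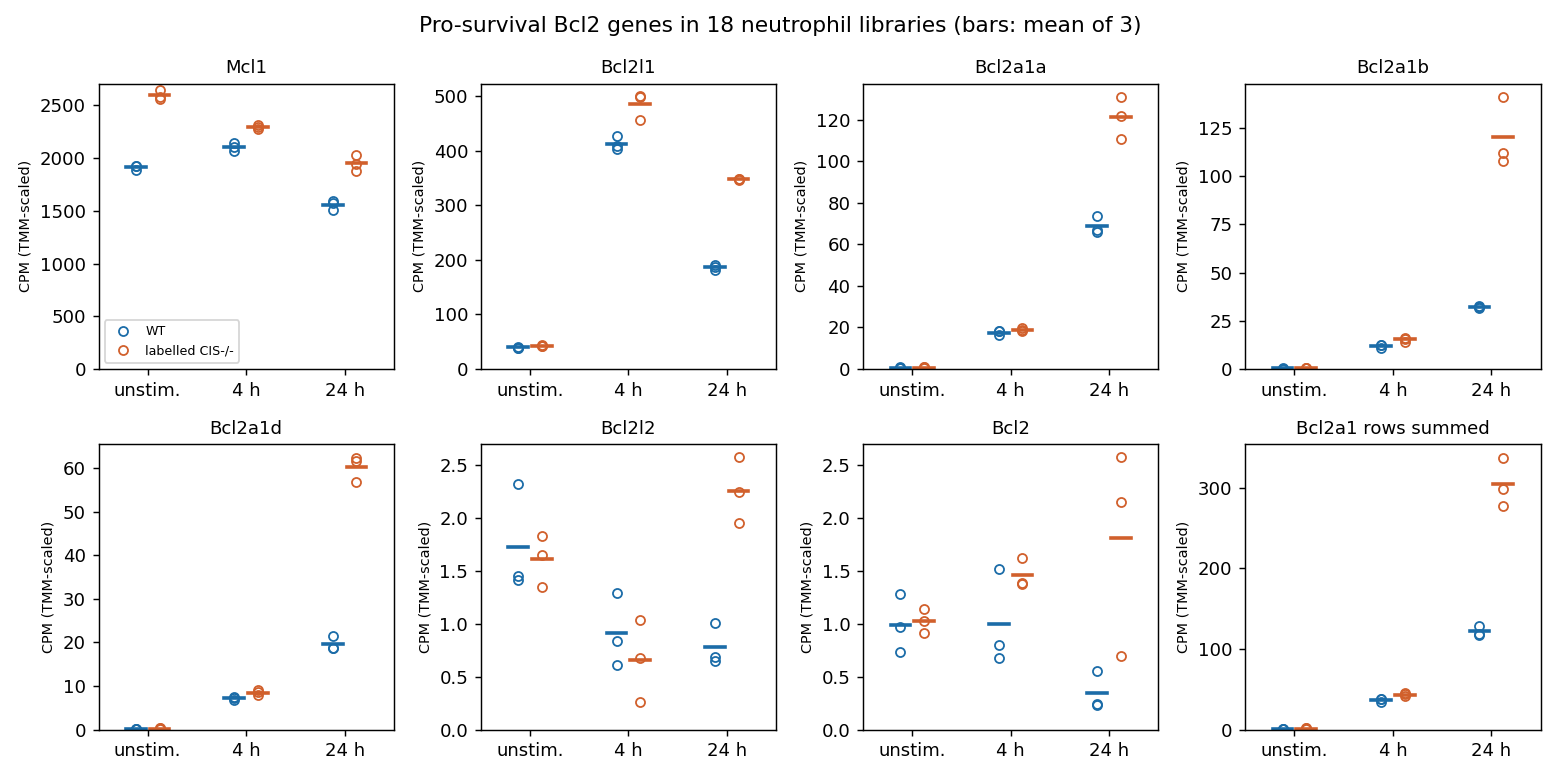
CPM of each gene, and of the 4 Bcl2a1 rows summed, in the 18 libraries by time (linear axes from 0), with open circles for libraries and bars for the mean of 3, in blue for WT and orange for libraries labelled CIS-/-. Bcl2l1 peaks at 4 h, the Bcl2a1 rows are highest at 24 h, and Bcl2 and Bcl2l2 stay at or under 2.58 CPM.

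The Bcl2a1 genes, which encode the short-lived inhibitor A1, went from almost no counts to the largest changes in the family. Bcl2a1a (ENSMUSG00000102037.1, chr9:88956900-88962419, + strand) had 0.489, 0.739 and 0.483 CPM in unstimulated WT libraries, then 18.1, 18.1 and 16.2 CPM at 4 h, then 67.1, 73.7 and 66.2 CPM at 24 h. With the CIS-/- label it had 0.73, 0.254 and 0.902 CPM, then 19, 19.6 and 18.2 CPM, then 131, 111 and 122 CPM. The genotypes overlapped before GM-CSF. At 4 h the highest WT library, at 18.1 CPM, stood next to the lowest labelled CIS-/-, at 18.2 CPM, and no difference was called. At 24 h the difference was called.

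Bcl2a1b (ENSMUSG00000089929.1, chr9:89199209-89207827, + strand) showed 0.183, 0.134 and 0.376 CPM in unstimulated WT libraries, then 12.3, 12.6 and 10.6 CPM at 4 h, then 32.6, 32.1 and 31.8 CPM at 24 h. Its values in libraries labelled CIS-/- were 0.548, 0.698 and 0.322 CPM, then 16.3, 15.6 and 14.2 CPM, then 141, 108 and 112 CPM. At 24 h its lowest library labelled CIS-/- was over 3 times its highest WT library.

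Bcl2a1d (ENSMUSG00000099974.1, chr9:88723285-88731914, - strand) was the lowest of the 3, at 0.245, 0.134 and 0.0537 CPM in unstimulated WT libraries, then 6.7, 7.34 and 7.55 CPM at 4 h, then 18.7, 21.5 and 18.7 CPM at 24 h. Libraries labelled CIS-/- held 0.304, 0.0634 and 0.322 CPM, then 7.91, 8.99 and 8.59 CPM, then 62.3, 56.7 and 61.5 CPM. The unstimulated values rest on 1 to 5 counts per library for this copy, 2 to 11 for Bcl2a1b and 4 to 14 for Bcl2a1a, so folds against that baseline are imprecise.

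In WT the 3 copies rose together, with log2 changes of 4.94 ± 0.18, 5.58 ± 0.28 and 5.60 ± 0.28 for Bcl2a1a, Bcl2a1b and Bcl2a1d at 4 h and of 6.93 ± 0.13, 7.02 ± 0.21 and 7.06 ± 0.21 at 24 h. Without unstimulated WT replicate 1 the Bcl2a1d values became 6.20 and 7.66. In cells labelled CIS-/- the changes were 4.90 ± 0.18, 4.86 ± 0.23 and 5.17 ± 0.25 at 4 h and 7.58 ± 0.12, 7.82 ± 0.15 and 7.98 ± 0.16 at 24 h. Counted as 1 row of 4 copies, Bcl2a1 rose 38.9-fold in WT (log2 5.28 ± 0.14, edgeR adjusted p = 1.19e-33) and 31.3-fold in cells labelled CIS-/- (log2 4.97 ± 0.13) at 4 h, and 128-fold and 219-fold at 24 h. No difference between genotypes in the 4 h change was called for the summed row (-0.31 ± 0.31, edgeR adjusted p = 0.586).

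Between 4 h and 24 h the copies kept rising while Bcl2l1 fell. The summed row rose by a log2 change of 1.72 ± 0.06 in WT, from 36.9 to 122 CPM, and by 2.81 ± 0.06 in cells labelled CIS-/-, from 43.4 to 305 CPM. These changes differed by 1.08 ± 0.08 (edgeR adjusted p = 9.14e-16). For single copies the difference was 0.69 ± 0.10 for Bcl2a1a, 1.53 ± 0.14 for Bcl2a1b and 1.36 ± 0.14 for Bcl2a1d, all called. Scaled by library sizes alone, that of Bcl2a1a was 0.17 and no longer called (edgeR adjusted p = 0.132).

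**Figure D4:**
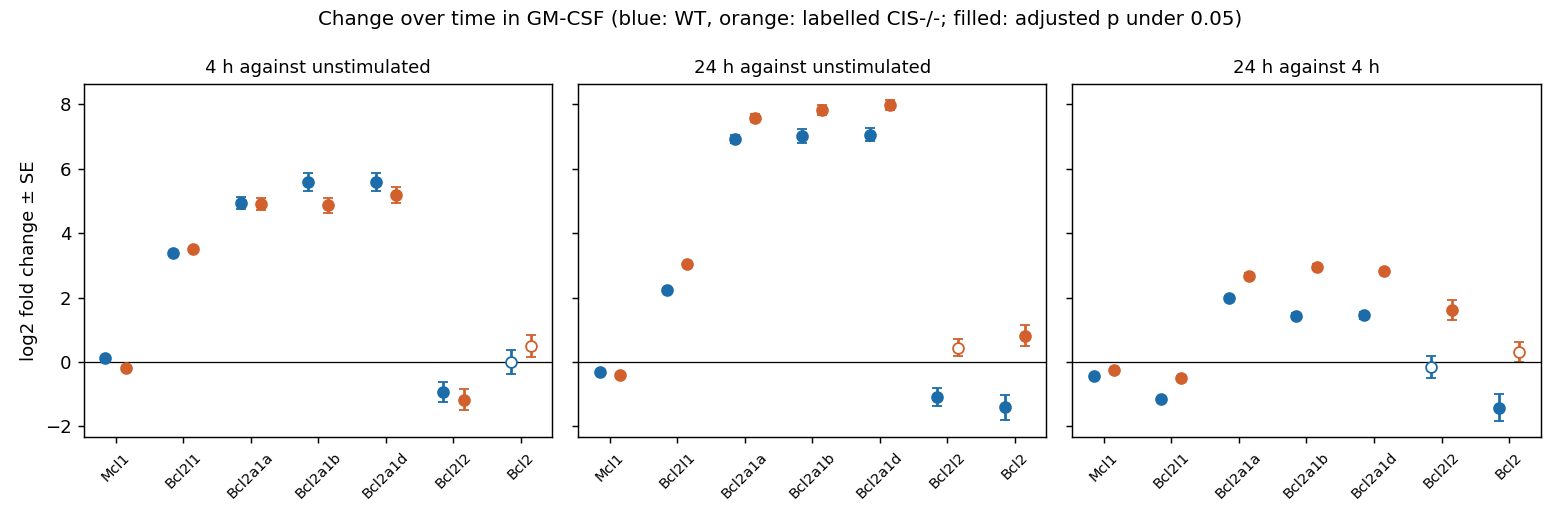
Log2 fold change ± SE over time for each gene in WT (blue) and in cells labelled CIS-/- (orange), with filled points for an adjusted p under 0.05 in the edgeR fit with TMM scaling. Bcl2a1 rows rise in all 3 panels and Bcl2l1 rises and then falls, while the WT values of Mcl1 turn in sign with library sizes alone.

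At 24 h the genotype difference was 0.81 ± 0.05 for Bcl2a1a (1.76-fold), 1.90 ± 0.07 for Bcl2a1b (3.72-fold) and 1.61 ± 0.07 for Bcl2a1d (3.06-fold), each called and each still called with library sizes alone, at 0.28, 1.36 and 1.08. The summed row was 2.5-fold higher (log2 1.32 ± 0.05, edgeR adjusted p = 1.13e-28). At 4 h it was 1.18-fold higher (log2 0.23 ± 0.07, edgeR adjusted p = 0.0117). Of single copies at 4 h Bcl2a1b was called (0.37 ± 0.12, edgeR adjusted p = 0.0337), a call lost without WT replicate 1 (0.0645) or 3 (0.154) or CIS-/- replicate 1 (0.106) or 2 (0.122). Bcl2a1a, at 0.12 ± 0.09, and Bcl2a1d, at 0.25 ± 0.12, were not called there. Their libraries did not overlap between genotypes, for Bcl2a1a by only 18.1 against 18.2 CPM. The share of all genes without overlap is not given here, so nothing is read from this. Unstimulated, the summed row differed by 0.55 ± 0.30, which was not called (edgeR adjusted p = 0.205).

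At 24 h the counts fell on the copies in different shares by genotype, given here as a description. In WT, of the counts on the 4 rows, Bcl2a1a held 56.6% ± 0.58 (SD, n = 3), Bcl2a1b 26.4% ± 1.3 and Bcl2a1d 16.1% ± 0.55. In libraries labelled CIS-/- the shares were 39.9% ± 0.96, 39.3% ± 2.2 and 19.8% ± 1.2. The 3 libraries of each genotype did not overlap for any copy. At 4 h the shares of Bcl2a1b were closer, 30.6% to 32.9% in WT and 34.4% to 37.2% in libraries labelled CIS-/-, and those of Bcl2a1d overlapped. No test of these shares was run. How the counting treated reads that match several copies is not known here, so shares of counts need not be shares of transcripts. Bcl2a1b shares 401 bases (49.1%) of its exons with Gm29094 on the same strand, which had 0 counts in every library.

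**Figure D5:**
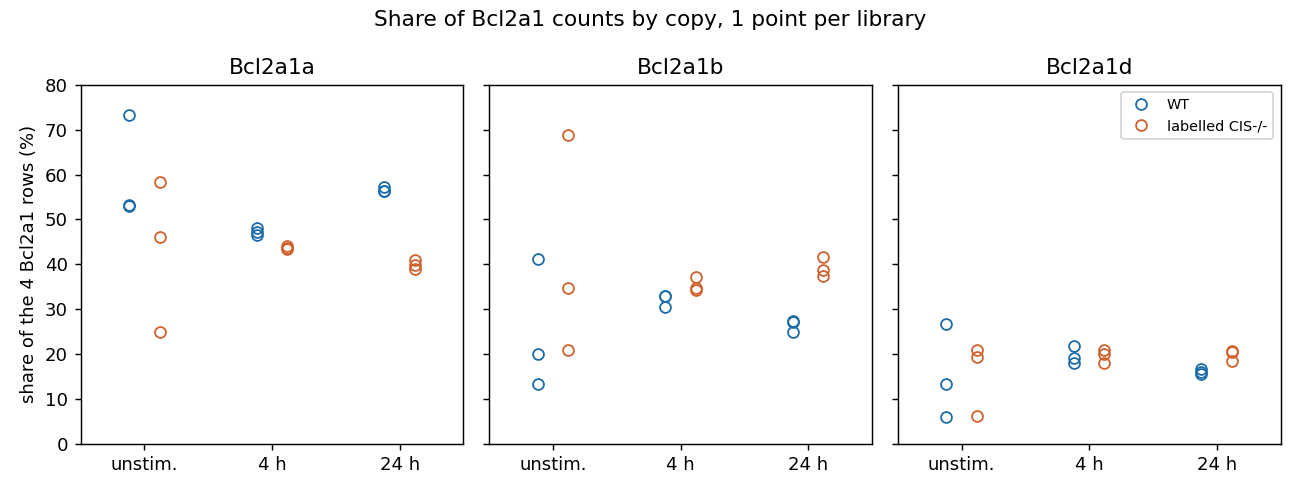
Share of the counts on the 4 Bcl2a1 rows (%) taken by each of 3 copies, with 1 point per library, by time, in blue for WT and orange for libraries labelled CIS-/-. At 24 h Bcl2a1a holds 56.2% to 57.3% in WT and 39% to 40.9% in libraries labelled CIS-/-; unstimulated shares rest on 15 to 26 counts per library.

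Bcl2a1c (ENSMUSG00000053820.4, chr9:114330135-114330578, + strand), a short related row outside the 7 members, had no count in the 6 unstimulated libraries. A count of 0 allows up to 3 counts over a group, or 0.0602 CPM for WT and 0.0629 CPM for the CIS-/- label. At 24 h it reached 1.1 and 3.06 CPM, at least 18.2-fold and at least 48.7-fold higher than those limits, which cover counting error only.

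Bcl2 and Bcl2l2, the founding gene of the family and the gene of BCL-W, were near the limit of detection. Bcl2 (ENSMUSG00000057329.7, chr1:106538178-106714274, - strand) had 5 to 43 counts per library. In WT it had 0.734, 1.28 and 0.967 CPM unstimulated, then 1.52, 0.68 and 0.804 CPM at 4 h, then 0.233, 0.556 and 0.245 CPM at 24 h. Libraries labelled CIS-/- held 0.913, 1.14 and 1.03 CPM, then 1.39, 1.38 and 1.62 CPM, then 0.698, 2.58 and 2.15 CPM. WT was lowest at 24 h, apart from both earlier groups, while libraries labelled CIS-/- were higher there in 2 of 3, with replicate 1 low.

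Bcl2 thus fell in WT by 24 h (-1.41 ± 0.40, edgeR adjusted p = 0.00152, and -2.00 without WT 24 h replicate 2). The fall from 4 h was -1.42 ± 0.42 (edgeR adjusted p = 0.00232), a call lost without WT 4 h replicate 1 (0.072). Without WT 24 h replicate 2 that value was -2.01. In cells labelled CIS-/- its 24 h change was 0.82 ± 0.32 (edgeR adjusted p = 0.0158). That call was lost with limma-voom (0.0804), with library sizes alone (0.0611) and without CIS-/- unstimulated replicate 1 (0.0594) or 24 h replicate 2 (0.108) or 3 (0.137). At 24 h libraries labelled CIS-/- were 4.89-fold higher than WT (2.29 ± 0.36, edgeR adjusted p = 1.21e-07), and the log2 value was 2.90 without WT 24 h replicate 2. Unstimulated and at 4 h the genotype differences were 0.06 ± 0.35 and 0.55 ± 0.36, neither of them called.

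Bcl2l2 (ENSMUSG00000089682.10, chr14:54883377-54888234, + strand) had 3 to 39 counts per library. WT libraries held 2.32, 1.41 and 1.45 CPM unstimulated, then 0.838, 0.612 and 1.29 CPM at 4 h, then 0.652, 1.01 and 0.687 CPM at 24 h. Those labelled CIS-/- held 1.83, 1.65 and 1.35 CPM, then 0.261, 1.04 and 0.681 CPM, then 2.25, 2.58 and 1.95 CPM. At 24 h every library labelled CIS-/- was above every WT library, and at the earlier times the genotypes overlapped.

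By 4 h Bcl2l2 fell in both genotypes, with log2 changes of -0.94 ± 0.31 in WT (edgeR adjusted p = 0.0054) and -1.17 ± 0.33 in cells labelled CIS-/- (edgeR adjusted p = 0.00133). The WT call was lost without unstimulated replicate 1 (0.0695) or 4 h replicate 2 (0.0618). From 4 h to 24 h it rose in cells labelled CIS-/- (1.62 ± 0.32, edgeR adjusted p = 7.41e-06) and was not called in WT (-0.15 ± 0.34). These changes differed by 1.78 ± 0.48 (edgeR adjusted p = 0.000954). At 24 h the genotype difference was 1.45 ± 0.27 (2.73-fold, edgeR adjusted p = 3.17e-06). Gm20521 shares 594 bases (13.3%) of its exons on the same strand and had 0 counts.

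The partners of these proteins moved as well, and the lists below were drawn from textbook roles. Of 6 tested genes of 8 BH3-only proteins, 3 rose and 2 fell in WT at 4 h, where 76.3% of all genes were called (38.1% higher, 38.2% lower). They were led by Bcl2l11, the gene of BIM, from 26.7 to 270 CPM (3.34 ± 0.05), while Bmf fell from 33.3 to 10 CPM. Between genotypes at 24 h 2 of these were higher and 4 lower, where again 76.3% of all genes were called, and their median log2 difference was -0.72 against -0.02 for all genes. Bcl2l11 stood at 257 ± 7.5 against 96.1 ± 2.3 CPM (1.42 ± 0.04), Pmaip1, the gene of NOXA, at 181 ± 4.6 against 117 ± 8.8 CPM (0.63 ± 0.04) and Bmf at 5 ± 1.2 against 20.7 ± 1.9 CPM (-2.11 ± 0.10). The higher A1 and BCL-XL transcripts at 24 h thus stood beside higher BIM and lower BMF transcripts. The values of partner genes here and below are given with TMM scaling only. With library sizes alone the median genotype difference of all genes at 24 h moved from -0.02 to -0.55. Differences as small as that of Pmaip1 can therefore rest on the scaling.

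Of the effectors, Bax rose in WT at 4 h from 5.83 to 64.3 CPM (3.46 ± 0.08) and Bak1 from 57 to 132 CPM (1.21 ± 0.05), and Bok was not tested. In that comparison 38.1% of all genes were called higher. At 24 h Bax stood at 140 ± 11 CPM in libraries labelled CIS-/- against 34.2 ± 1.1 CPM in WT (2.03 ± 0.05, edgeR adjusted p = 1.26e-42), while Bak1 was not called (0.06 ± 0.05). At 4 h both were called lower in libraries labelled CIS-/-, Bax by -0.26 ± 0.06 and Bak1 by -0.14 ± 0.04, where 9.3% of all genes were called lower.

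Genes that set the turnover of MCL1 protein were lower in 2 of 6 tested at 24 h in libraries labelled CIS-/-, where 38.1% of all genes were lower, so the count is near the background. They were Btrc, a ubiquitin ligase subunit, at 8.97 ± 1.6 against 16.1 ± 0.58 CPM (-0.84 ± 0.10), and Huwe1, a ligase for MCL1, at 121 against 139 CPM (-0.20 ± 0.05). Of 8 tested genes of inhibitors of apoptosis and the caspase-8 brake, 4 were higher and 4 lower at 24 h, against 38.2% and 38.1% of all genes. Cflar, which encodes FLIP, stood at 364 against 95.3 CPM (1.93 ± 0.04), Birc3 at 311 against 121 CPM (1.36 ± 0.04) and Birc2 at 20.6 against 29.2 CPM (-0.50 ± 0.07). Of 9 apoptosome and caspase genes 4 were higher and 4 lower, against the same background, with Casp8, the initiator of the death-receptor route, higher (1.39 ± 0.05).

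The genes whose patterns were most like those of the members over the 18 libraries were ranked by Pearson's r of log2 CPM among 5956 genes, as a description with no test, since the points share libraries and groups. For Bcl2l1 they were Egln3, an oxygen-sensing hydroxylase (r = 0.999, 27.5 to 855 CPM in WT by 4 h), Cd300lf (0.998) and B9d2 (0.997). For Mcl1 they were Zfand5 (0.987), the feedback inhibitor Socs3 (0.976) and Dhrs11 (0.952). For Bcl2a1a they were F2rl2 (0.996), Lrp12 (0.995) and Gltp (0.994), and for Bcl2, with few counts, Atp7a (0.828), Atp8b4 (0.808) and Vps13d (0.795). Ranked by Spearman's rho, 0 of these 3 genes stayed for Bcl2a1a and 1 of 3 for Bcl2l1 and for Bcl2, so the names depend on the measure. Socs3 stood at 1800 CPM in unstimulated libraries labelled CIS-/- against 678 CPM in WT, the same order as for Mcl1.

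The Bcl2a1 genes lie on the same chromosome as the targeted gene, 18.1 to 18.6 Mb from Cish. Within 2 Mb of them 19 genes were tested, of which 15.8% were called between genotypes unstimulated, 10.5% at 4 h and 68.4% at 24 h, against 22.3%, 17.3% and 76.3% of all genes. Between them and Cish lay 75 tested genes, of which 41.3%, 38.7% and 76% were called. The log2 difference largest in size there was that of Col6a4 unstimulated (6.82) and at 4 h (7.43), and that of Pcbp4 at 24 h (-5.91). Bcl2a1c, which is part of the summed row, lies 7.0 Mb from Cish. The part of linked DNA in the Bcl2a1 result was not tested.

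Markers of other myeloid cells also moved with the 24 h genotype difference. The 9 monocyte and macrophage markers summed to 540 to 561 CPM in WT and to 1010 to 1050 CPM with the CIS-/- label, of which Adgre1 gave 777 CPM, while Ccr2, Cx3cr1, Ms4a6c, Mrc1 and C1qa were each under 1 CPM. The 5 early granulocyte markers summed to 198 to 202 and 343 to 385 CPM, of which Kit gave 366 CPM and Mpo 2.16 CPM. The 7 eosinophil, basophil and mast cell markers went the other way, at 56.4 to 64.2 CPM in WT and 38.1 to 42.5 CPM with the CIS-/- label. Their part in the members' results was not tested.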

How the data were processed

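The members, gene lists and tests were chosen with earlier results of these data known. The deposited values were raw read counts per Ensembl gene in 18 libraries, made by the authors with Trimmomatic, STAR and featureCounts on mm10, per the submitters' processing notes. Software versions, like the handling of multi-mapping reads, were not given in the sources used here. Libraries came from a directional kit, per the labels' protocols.

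Gene names matched GENCODE M21 for 53274 of 53379 identifiers. With edgeR 4.0.16 in R 4.3.3, filterByExpr by group kept 11569 genes, which held 99.928% of counts. A robust quasi-likelihood model with TMM factors was fitted to all 6 groups (12 residual degrees of freedom), and two-sided p-values were Benjamini-Hochberg adjusted over all genes tested and called under 0.05. SEs are the log2 fold change divided by the root of its F statistic. CPM are counts per 1000000 counts of the TMM-scaled library size, and levels per length divide CPM by merged exon length.

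Totals of 12170524 to 22539858 counts and a common biological coefficient of variation of 3.3% set the precision. Replicates were not copies of the same counts (chi-square per degree of freedom 1.29 to 8.46), which does not tell animals from technical replicates. The highest values, 6.82 and 8.46, were those of CIS-/- 24 h replicate 1 against replicates 2 and 3. Between replicates 2 and 3 of that group the value was 2.4.

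Genes named were all 7 members, up to 3 per pathway list with the smallest adjusted p in the comparison described and at least 1 CPM, and 3 per member by likeness (prior of 1 CPM, mean of at least 10 CPM). Alternatives were RLE factors, DESeq2 1.42.0, limma-voom (limma 3.58.1), no filter, a fit of the compared groups, a filter of 50 counts in 3 libraries, each library left out, a replicate block, Bcl2a1 rows summed, Spearman's rho for likeness and, added after seeing the data, library sizes without TMM factors. No protein sequences were used here. Some single genes of the lists are not reported here.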

Additional observations from a re-analysis of the deposited data

Results flagged for a closer look

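For 12 changes over time the test of the difference between genotypes (CIS-/- minus WT, log2, edgeR adjusted p under 0.05) was passed. Unstimulated Cish transcript was higher, not lower, in the libraries labelled CIS-/-. From unstimulated to 4 h the member that passed was Mcl1, at -0.31, where 15.7% of all genes were called.

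From unstimulated to 24 h, where 64.7% of all genes were called, the values were 2.23 for Bcl2 (edgeR adjusted p = 0.000153), 0.79 for Bcl2l1 (edgeR adjusted p = 2.78e-17), 1.54 for Bcl2l2 (edgeR adjusted p = 0.00029) and -0.11 for Mcl1 (edgeR adjusted p = 0.0193). The Mcl1 call was lost with RLE factors, with the stricter filter, with the compared groups only and without CIS-/- unstimulated replicate 3, WT 24 h replicate 2 or 3 or CIS-/- 24 h replicate 2, with adjusted p of 0.0515 to 0.103. The Bcl2 value was 2.84 without WT 24 h replicate 2.

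From 4 h to 24 h, where 66% of all genes were called, all 7 members passed: Bcl2 at 1.74, Bcl2l1 at 0.67, Bcl2l2 at 1.78, Mcl1 at 0.20, Bcl2a1a at 0.69, Bcl2a1b at 1.53 and Bcl2a1d at 1.36. With library sizes alone Mcl1 turned to -0.32 (edgeR adjusted p = 6.48e-10) and Bcl2a1a was not called. Bcl2 was 2.34 without WT 24 h replicate 2.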

How the results depend on the processing

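Of 1324 recomputed member log2 values, 1279 stayed on the same side of the threshold with the same sign, 20 lost and 1 gained a call (Bcl2, CIS-/- 24 h against 4 h, 0.67 without CIS-/- 24 h replicate 1), and 24 changed sign. The genotype difference in change from unstimulated to 24 h was called for 1 member in place of 4 with the filter of 50 counts in 3 libraries, which left Bcl2 and Bcl2l2 untested. The remaining counts of members called stayed within 1.5 times under the alternatives run.

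Library sizes alone turned Mcl1 in WT at 4 h (-0.041), at 24 h (0.007) and from 4 h to 24 h (0.048), in the 24 h genotype comparison (-0.21) and in the genotype difference from 4 h to 24 h (-0.32), Bcl2 in WT at 4 h (-0.16) and Bcl2l2 in WT from 4 h to 24 h (0.33). Limma-voom turned Bcl2 in WT at 4 h (-0.029) and the Bcl2a1a genotype difference to 4 h (0.11). The other sign changes came from leaving out 1 library, for values not called: Bcl2 in WT at 4 h ran from -0.41 to 0.25, Bcl2l2 in WT from 4 h to 24 h from -0.41 to 0.16, the unstimulated genotype difference from -0.11 to 0.26 for Bcl2, -0.22 to 0.17 for Bcl2l2 and -0.18 to 0.53 for Bcl2a1a, and the genotype difference in the 4 h change from -0.41 to 0.30 for Bcl2a1a and -0.81 to 0.09 for Bcl2l2. Library sizes alone also moved the share of higher genes among calls from 51.9% to 66.8% in WT at 24 h, from 47.4% to 73% in WT from 4 h to 24 h and from 57.8% to 41.3% unstimulated between genotypes.

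No same-numbered pair of libraries, of 45, deviated together (r from -0.09 to 0.08). The labels state no pairing, and low r between such small deviations cannot exclude one. With the replicate block 8839 genes were called between genotypes at 24 h against 8827 without it, and 7 of 7 members in each. Fewer than 44 counts per library limit what can be said of Bcl2 and Bcl2l2.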
